A study of Mus musculus with 8 samples.

Results

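The 4 control libraries of a study of the BMP receptor Bmpr1a in the mouse mammary gland were described as a baseline of the epithelium at pregnancy day 14.5. They were taken by their sample labels, 4 of the 8 libraries in the series, and the other 4 libraries, from mice in which Cre deletes Bmpr1a, were not compared here. The control mice were females of the C57BL/6 strain, which the labels call WT and the study's methods describe as littermates. The genotype of each control and whether the controls received the drug that induces Cre are not given in the sources used here. The glands were minced and digested with collagenase and hyaluronidase, red blood cells were lysed, and total RNA of the remaining cells was sequenced, with 1 library for each mouse. The preparation was not sorted, so every library holds RNA of all cells that the digestion left. In bulk RNA, fewer cells of a type and less RNA per cell cannot be told apart.

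At mid-pregnancy the mammary epithelium consists of luminal cells, which line ducts and growing alveoli and will secrete milk, and of basal myoepithelial cells, which surround them and contract to eject it. Progesterone and prolactin drive the growth of the alveoli, and prolactin acts through its receptor, the kinase Jak2 and the transcription factor Stat5a to switch on milk protein genes. The first milk protein transcripts appear before milk is secreted, so this stage shows an epithelium on the way to lactation.

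The measure was FPKM (fragments over gene length in kilobases, scaled by a median-of-ratios size factor for each library) for 55933 annotated genes. Reads lying on genes numbered 16642619, 16456480, 16514248 and 18778823 in control libraries 1 to 4, and this order is kept wherever 4 values follow each other. The summed FPKM were 297912, 291204, 325285 and 325391. A gene was counted as detected at an FPKM of 1 or more. By this rule 13016, 12957, 12918 and 12823 genes were detected, and 11941 genes were detected in all 4 libraries. The mean over the libraries reached 1 for 12941 genes, of which 11095 were protein coding. No read was found in any control library for 26876 genes. The sex of the mice was checked with genes of the sex chromosomes. All 4 Y-linked genes examined (Ddx3y, Uty, Kdm5d and Eif2s3y) were listed at 0 in all 4 libraries, and Xist, the RNA that coats the inactive X chromosome, stood at 47.01, 54.6, 30.3 and 39.3 FPKM.

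The transcripts with the highest FPKM were those of energy production, protein synthesis, milk proteins and the luminal cytoskeleton. The highest of all was mt-Co1, a subunit of cytochrome c oxidase encoded in the mitochondrial genome, at 4331, 4570.2, 4425 and 4372 FPKM. Eef1a1, the elongation factor that brings transfer RNAs to the ribosome, came next after mt-Cytb at 3661, 3771, 4023 and 4138. Csn1s2a, a casein, was the highest milk protein gene at 1556, 1787, 2276 and 2547. Plet1, which encodes a surface protein of placental and epithelial progenitor cells, stood at 1894, 1739, 2024 and 1816, and its exons overlap those of Plet1os (64.6 FPKM) on the other strand. Wfdc18, a small secreted protein of the whey acidic protein family, reached 1563, 1469, 2148 and 2212. Krt8 and Krt18, the keratin pair of simple epithelia, reached 1763 ± 197 and 1278 ± 177 (mean ± SD, n = 4), and Epcam, an adhesion molecule of epithelial cells, 1074 ± 56.3. B2m, the light chain of class I histocompatibility molecules, stood at 1670.4, 1166, 1241 and 1310.0, above the other libraries in library 1. Nfkbia, the inhibitor that holds NF-kB in the cytoplasm, closed the first 25 genes at 992, 925, 1083 and 1021. Of these 25 genes, 6 encode cytosolic ribosomal proteins and 5 are mitochondrial.

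The ranks between neighbours were loose. Of the 24 pairs of neighbours among the first 25 genes, 6 stood in the same order in all 4 libraries, among them mt-Co1 over mt-Cytb, Rplp1 over Csn1s2a and Eef2 over Epcam. The order of Csn1s2a, mt-Nd1, Plet1 and Wfdc18 changed from library to library. The 10 highest genes of a library held 8.23, 8.52, 8.68 and 8.76% of its summed FPKM, and the 100 highest held 29.3, 29.1, 30.9 and 30.7%. Averaged over the libraries, 413 genes held 50% of the FPKM and 5270 genes held 90%. No single transcript dominated the libraries at this stage.

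**Figure D1:**
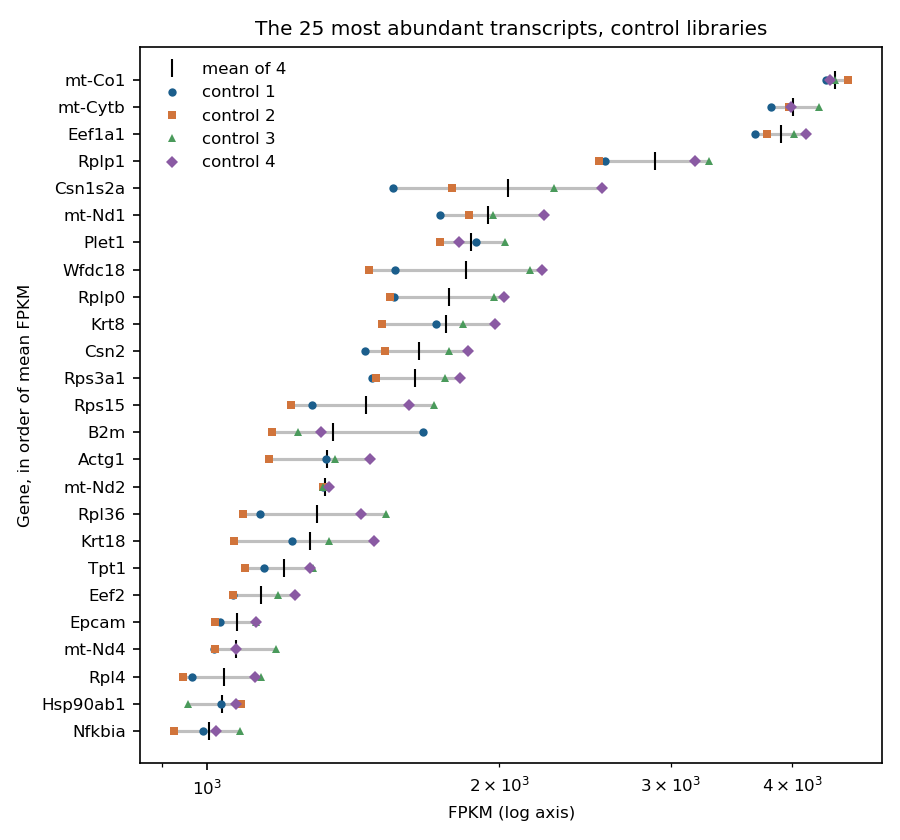
FPKM of the 25 most abundant genes of at least 200 bases in each control library (coloured symbols), on a log axis, in order of their mean (black tick); grey lines join the lowest and highest library. Caseins, Wfdc18 and ribosomal protein genes lie lower in libraries 1 and 2 than in 3 and 4, while mt-Nd2 differs little between libraries.

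How FPKM divides by gene length weighed on these ranks. The deposited gene lengths count every base that is exonic in any annotated transcript, and among genes averaging 1 FPKM or more their median ratio to the length of the transcript with the longest coding sequence was 1.25. For Csn2, which encodes beta-casein, the table gives 6926 bases where that transcript has 1329. Divided by transcript length in place of gene length, Csn2 moved from rank 11 to rank 1 at 8613 ± 1007, Csn1s2a from 5 to 2 at 7775, Wfdc18 from 8 to 5, and Csn1s1 from 51 to 7 at 3074. The mitochondrial genes have no introns and kept their values, so that mt-Co1 came at rank 4. By this length Csn2, Csn1s2a and Csn1s1 are among the 10 most abundant transcripts, and Csn3, at 1401, is not. Levels below are FPKM with the deposited lengths unless said otherwise.

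Caseins, the main proteins of milk, are encoded in a cluster on chromosome 5, from Csn1s1 (chr5:87666208-87682578, GRCm38) to Csn3 (chr5:87925579-87932665). In libraries 1 to 4 they summed to 3997, 4415, 5451 and 5847 FPKM, 1.58% ± 0.198 of all FPKM (SD, n = 4). Csn2 stood at 1455, 1524, 1775 and 1856, Csn1s1, which encodes an alpha-casein, at 547, 619.6, 796 and 814, and Csn3, which encodes kappa-casein, at 438, 484, 602 and 629. All of these were lowest in library 1 and highest in library 4. Csn1s2b lies in the same cluster between Csn1s2a and Csn3 and was at 0.352, 0.38, 0.687 and 0.363, below detection by the rule of 1 FPKM. Within the cluster, mean levels thus ran from 0.445 to 2041 FPKM.

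The promoters of 3 of these milk protein genes are shown because the genes lead the secretory part of the profile and were all lower in libraries 1 and 2 than in 3 and 4. Each is the 250 bases before the transcript start in RefSeq (GRCm38.p6), 5′ to 3′ on the strand of the gene. Capitals mark TATAAA, a core element that positions RNA polymerase, and TTCNNNGAA, the palindrome that Stat5 and other STAT factors bind. Csn1s2a (plus strand, chr5:87774200-87774449) and Wfdc18 (plus strand, chr11:83708754-83709003) are the highest milk protein genes by FPKM, and Csn2 (minus strand, chr5:87699426-87699675) was added after its values were seen.
Csn1s2a: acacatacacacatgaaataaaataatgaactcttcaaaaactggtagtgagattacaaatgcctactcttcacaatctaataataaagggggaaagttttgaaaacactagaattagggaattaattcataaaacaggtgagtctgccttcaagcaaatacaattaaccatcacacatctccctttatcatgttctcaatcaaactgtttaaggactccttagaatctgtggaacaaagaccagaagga
Wfdc18: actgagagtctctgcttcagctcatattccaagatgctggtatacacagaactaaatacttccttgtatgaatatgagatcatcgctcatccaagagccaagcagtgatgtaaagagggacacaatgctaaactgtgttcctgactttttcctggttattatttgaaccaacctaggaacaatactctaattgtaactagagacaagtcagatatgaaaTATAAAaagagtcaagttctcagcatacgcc
Csn2: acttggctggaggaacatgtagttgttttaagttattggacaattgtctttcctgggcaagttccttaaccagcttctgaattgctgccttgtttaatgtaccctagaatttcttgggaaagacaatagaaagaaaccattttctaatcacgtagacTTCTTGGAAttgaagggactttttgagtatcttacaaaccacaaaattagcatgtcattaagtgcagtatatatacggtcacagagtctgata
In Csn2 the palindrome TTCTTGGAA begins 93 bases before the start, and in Wfdc18 TATAAA begins 31 bases before it. Neither motif was found in the Csn1s2a window. The RefSeq starts of Csn1s2a and Csn2 lie 117 and 205 bases from those of the GENCODE transcripts with the longest coding sequence, and that of Wfdc18 lies 11 bases away. Both strands were searched. Of 13 casein and whey genes with a promoter in the table, 3 held TTCNNNGAA (Csn1s1, Csn2 and Glycam1), against 6.58% of all 16569 promoters. TATAAA was in 2 of the 13 (Wfdc18 and Spp1), against 12.02% of all. GGGCGG, the core of the GC box that Sp1 binds, was in 1 of the 13 (Mfge8), against 44.8% of all. Over the 100 most abundant genes, of which 69 had a promoter in the table, the 3 motifs were in 7.25%, 13.04% and 44.9%. Among the 8782 promoters of protein-coding genes with a mean of at least 1 they were in 5.75%, 6.51% and 61.9%, so the abundant genes lie nearer to all promoters than to those of expressed genes for TATAAA and GGGCGG.

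Whey proteins were spread over a wide range of levels. The 12 genes listed for whey and other secreted milk proteins were all at a mean of 1 FPKM or more, with a median of 26.7 ± 7.34 FPKM. Below Wfdc18, Glycam1, a mucin-like protein of milk, was at 240.0, 265, 609 and 576, and Ltf, the iron-binding lactoferrin, at 263, 248, 202 and 223. Ltf was highest in library 1, unlike Glycam1, whose values in libraries 3 and 4 lay well above those in 1 and 2. Mfge8, a protein of the milk fat globule surface, was at 119, 117, 134 and 133. The classical whey genes were low at this stage. Wap, the whey acidic protein, was at 24.3, 25.3, 62.8 and 41.6, and Lalba, the alpha-lactalbumin that turns a galactosyltransferase into lactose synthase, was at 17.4, 15.9, 30.5 and 21.98. Both were highest in library 3, as were 9 of the 12 genes. Such counts are read against all genes with a mean of at least 1, of which 21.6%, 23.8%, 30.3% and 24.2% were highest in libraries 1 to 4, and 25%, 28.1%, 27.2% and 19.7% lowest.

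Genes of milk fat were present at moderate levels. All 22 listed genes of fat synthesis and of the fat globule were at a mean of at least 1, with a median of 20.3 ± 1.303 FPKM in all. Plin2, which coats lipid droplets, was the highest at 143, 126, 236 and 184, ahead of Fabp3, a fatty acid carrier, at 134, 105, 214 and 206. Cd36, a fatty acid transporter, was at 75.7 ± 4.18, Acly, which makes acetyl-CoA for lipid synthesis, at 74.5 ± 6.98, Muc15 at 73.1 ± 3.03 and Xdh, whose product binds the droplet to the membrane, at 37.9 ± 4.703. Plin2 and Fabp3 differed between libraries with CVs (SD over mean) of 28.2% and 32.8%, while Muc15 and Cd36 had 4.15% and 5.52%. Fasn, the fatty acid synthase, was at 19.98 ± 2.303, Btn1a1, the butyrophilin of the globule membrane, at 20.1 ± 1.601, and Acaca, which makes malonyl-CoA, at 4.54 ± 0.132.

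Of 9 genes for lactose synthesis, 8 were at a mean of at least 1 and Pgm1 was listed at 0 in all libraries. Pgm2, of the same enzyme family, was at a mean of 22.9 FPKM. Slc2a1, the glucose transporter, led at 50.3, 41.2, 65.9 and 52.1, and B4galt1, the galactosyltransferase, stood at 47.1, 44.1, 44.1 and 43.5. B4galt1 thus varied little (CV 3.65%), while its partner Lalba varied more (CV 30.6%). The endoplasmic reticulum, where secreted proteins fold, was represented by 12 genes with a median of 86.96 ± 5.904 FPKM. Calr, a lectin chaperone, was at 301 ± 13.7, Hspa5, the major chaperone of the compartment, at 318, 267, 229.9 and 247, and Xbp1, the transcription factor that enlarges it, at 103 ± 3.198. Of these genes, 9 were highest in library 1, while P4hb, Sec61b and Ssr4 were higher in libraries 3 and 4 than in 1 and 2.

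The genes that carry the prolactin signal ranged from low to high levels. Prlr, the prolactin receptor, was low at 1.94, 2.17, 1.75 and 1.61, Jak2 at 46.1, 44.3, 40.2 and 37.6, Stat5a at 19.03, 20.5, 20.97 and 19.1 and Stat5b at 14.1, 14.5, 14.2 and 12.7. The exons of Stat5a overlap those of Stat3 (107 FPKM) on the other strand. Of the feedback inhibitors, Socs3 was at 86.7 ± 3.21, Cish at 15.6 ± 0.555, Socs1 at 10.9 ± 1.15 and Socs2 at 9.34 ± 1.17. Elf5, the ETS factor of alveolar cells, was at 18.1, 17.8, 24.7 and 24.7, with the higher values in libraries 3 and 4. Gata3, a factor of luminal identity, was at 22.97 ± 0.982, Ehf at 44.4 ± 5.52, and Cebpb, a factor needed for alveolar growth, at 281 ± 45.00. Erbb4, a receptor of the EGF family with a part in lactation, was at 1.13, 1.21, 0.7 and 0.737.

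The epithelium named in the labels was plain from its marker genes. All 12 luminal markers were at a mean of at least 1, with a median of 297, 266, 297 and 295 FPKM. Beside Krt8, Krt18 and Epcam, Krt19 was at 966 ± 95.6, Cdh1, the E-cadherin of adherens junctions, at 292 ± 19.8, and the tight junction genes Cldn3, Cldn4 and Cldn7 at 241 ± 47.4, 633 ± 159.8 and 283 ± 31.1. Library 2 was the lowest for 11 of the 12 luminal markers. Cldn4 spanned 599, 437, 821 and 673, the widest ratio among the claudins named here. Krt7 (13.96) and Wfdc2 (3.099) were the lowest of the list.

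Markers of luminal progenitors differed much among themselves. Cd14, a coreceptor for bacterial lipopolysaccharide that these cells share with macrophages, was at 724, 667, 809 and 715. Aldh1a3, which makes retinoic acid, was at 59.9 ± 5.27, Itga2 at 37.9, 29.8, 27.04 and 23.03, Kit at 16.6 ± 1.78 and Itgb3, also known as CD61, at 9.36 ± 0.636. Transcripts of the steroid hormone receptors were low. Esr1, the oestrogen receptor, was at 0.963, 1.01, 0.738 and 0.909 and Pgr, the progesterone receptor, at 1.18, 1.24, 0.796 and 0.873, both higher in libraries 1 and 2 than in 3 and 4. Foxa1, a partner of Esr1, was at 7.85 ± 0.786. The paracrine signals that these cells release were at 19.6 ± 6.25 (Areg, an EGF family ligand), 6.23 ± 0.908 (Wnt4) and 1.29 ± 0.569 (Tnfsf11, the RANK ligand), and the list as a whole had a median of 2.22 ± 0.298 FPKM.

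Basal and myoepithelial genes were plentiful, with a list median below that of the luminal genes. All 14 were at a mean of at least 1, with a median of 41.1, 40.9, 39.05 and 36.1 FPKM, a library SD of 2.32. Acta2, the smooth muscle actin that gives myoepithelial cells their contractility, was the highest at 653, 718, 949 and 981, and Krt14, the basal keratin, followed at 679.8, 665, 816 and 849.7. Krt17 was at 460.3 ± 83.7, Krt5 at 126 ± 12.6, Cnn1, an actin-binding protein, at 88.6 ± 18.1 and Myh11, the smooth muscle myosin, at 79.4 ± 9.31. These 6 genes were lower in libraries 1 and 2 than in 3 and 4, which the median of the list was not. Itga6, an integrin of the basement membrane contact, ran the other way at 61.7, 60.1, 55.5 and 51.2. The transcription factors Trp63 and Snai2, which mark basal cells, were at 3.47, 4.42, 3.18 and 3.25 and 13.3, 10.5, 12.7 and 12.3. Oxtr, the oxytocin receptor through which milk ejection is triggered, was at 2.14, 2.82, 2.64 and 2.86. Tagln, an abundant smooth muscle gene, was at 1.71, 1.92, 2.46 and 2.22, far below Acta2 and Cnn1, and its exons overlap those of Pcsk7 (10.7, 10.1, 9.36 and 9.83 FPKM) on the other strand. Reads in such overlaps may be left out or given to either gene, so the level of Tagln is uncertain.

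Stromal cells left a clear signal that differed between libraries. Fibroblast genes had a median of 31.6, 48.8, 24.6 and 63.7 FPKM, highest in library 4 for 10 of 12 genes. Col3a1, a fibrillar collagen, was at 151, 299, 163 and 341, Col1a1 at 122, 204, 131 and 266, and Dcn, the proteoglycan decorin, at 52.9, 70.1, 45.5 and 83.7. The 2 libraries 2 and 4 lay above 1 and 3 for each of these. The ratio of the highest to the lowest library exceeded 2-fold for 9 of the 12 genes, whereas over all 12941 genes with a mean of at least 1 the share was 8.66%. Among protein-coding genes alone the share was 3.68%. Of the 14 basal and 12 luminal markers none passed the 2-fold ratio, which is near the share for protein-coding genes. The part of fibroblast RNA in other differences between the libraries was not tested.

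Genes of fat cells ranged from near 0 to high levels. Adipoq, the hormone adiponectin, was at 0.334, 0.0836, 0.562 and 0.231 FPKM, Plin1, the coat protein of fat droplets in adipocytes, at 0.0621, 0.0745, 0.0899 and 0.149, and Lep, leptin, at 0, 0.0344, 0 and 0.0635. Of 11 listed genes 5 reached a mean of 1, among them Fabp4 at 88.96, 77.00, 118 and 102 and Pnpla2 at 50.4, 41.00, 57.2 and 54.9, which capillary endothelium and other cells also express. The other 3 were Lipe, a lipase of stored fat, at 9.102, Pparg, the regulator of fat cell differentiation, at 2.16, and Cfd, adipsin, at 2.04. Endothelial genes had a median of 6.15 ± 0.692 FPKM, all 11 at a mean of at least 1. Plvap, a protein of fenestrated capillaries, was at 60.5 ± 9.12, Cldn5 at 37.1 ± 7.89, Cdh5, the cadherin of vessel walls, at 38.6, 36.7, 35.6 and 33.4 and Pecam1 at 26.2, 24.02, 24.9 and 21.8. Of 6 pericyte genes, Rgs5 led at 25.6, 35.9, 24.6 and 28.7, with Notch3 at 15.97 ± 1.21.

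Lymphocyte genes differed strongly between the libraries. The 9 B and plasma cell genes had a median of 6.06, 1.73, 13.97 and 1.32 FPKM. Igkc, the constant part of the kappa light chain, was at 109.5, 40.3, 581 and 66.7, Ighm, the heavy chain of IgM, at 14.3, 19.5, 65.95 and 7.18, Jchain at 6.49, 2.52, 22.7 and 4.95 and Cd79a, a part of the B cell receptor, at 6.06, 2.02, 13.97 and 1.32. Library 3 was the highest for 8 of these 9 genes, and all 7 with a mean of at least 1 passed 2-fold. The mean of the list medians was 5.77 FPKM and 3.04 without library 3. T and NK cell genes were low, and all 9 were highest in library 3, with Cd3d, a chain of the T cell receptor complex, at 0.795, 0.254, 2.56 and 0.499 and Lck, its kinase, at 2.05, 1.34, 3.32 and 1.55. The immunoglobulin genes together held 0.137, 0.0476, 0.53 and 0.0645% of the FPKM, and 64, 27, 115 and 39 of them were at 1 or more. Mast cell genes gave another such pattern. All 5 mast cell genes were highest in library 4, with Mcpt4, a granule protease, at 8.07, 8.13, 10.6 and 25.3 and Cma1 at 5.29, 3.81, 4.65 and 12.8. The 2 patterns lay in different libraries.

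Macrophage genes varied less from library to library than these. Their median was 8.19, 6.29, 6.22 and 6.07 FPKM, and 9 of 11 were highest in library 1. Lyz2, lysozyme, was at 209.5, 152, 136 and 147, C1qa, a complement component, at 70.9, 50.7, 62.7 and 69.3 and Csf1r, the receptor for the growth factor of macrophages, at 8.19, 6.29, 6.22 and 6.07. Of 6 neutrophil markers, Ly6g was listed at 0 in all libraries, and S100a8 and S100a9, which epithelial cells also express, were at 161 ± 10.9 and 13.8 ± 2.54 and were the only ones to reach a mean of 1. Red cell genes were low after lysis, Hba-a1 at 16.2, 16.7, 19.2 and 20.6 and Hbb-bs at 2.18, 2.93, 2.88 and 4.65. None of 7 skeletal muscle genes reached a mean of 1, and of 6 epidermal genes 2 did, Sbsn (16.01) and Krt10 (1.01). Among the lists of cell types, the luminal list had the highest median in every library, and the basal and fibroblast medians overlapped.

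**Figure D2:**
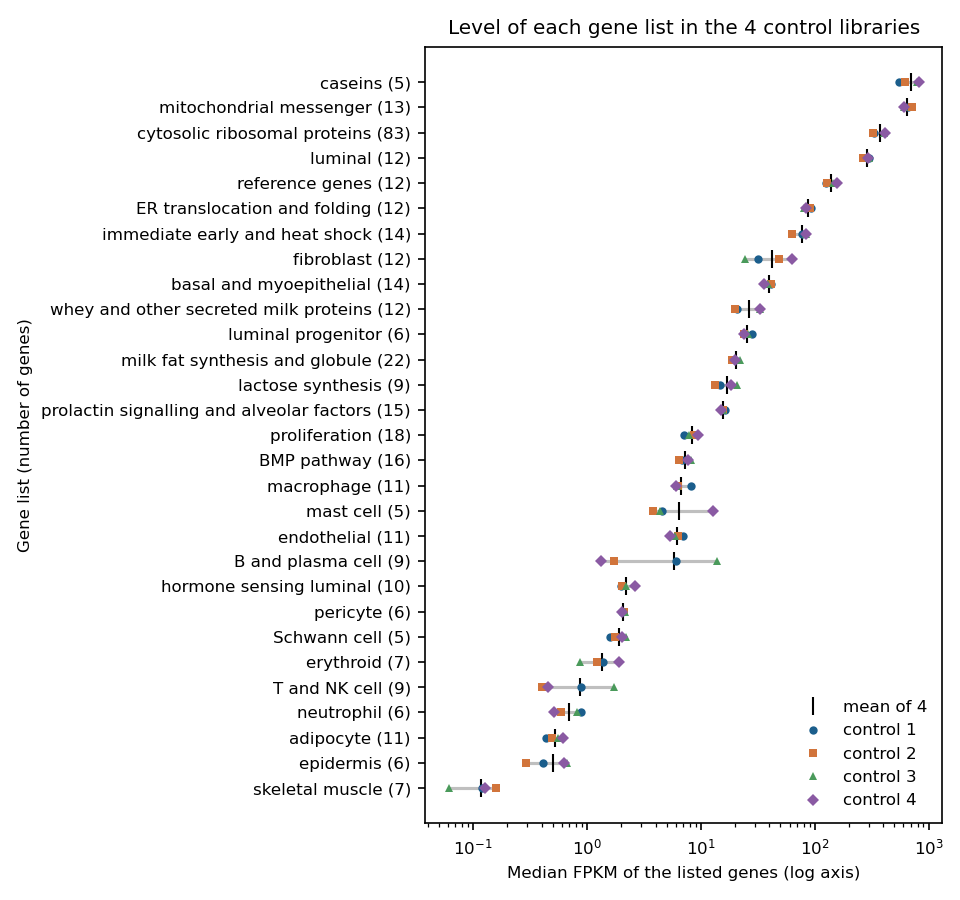
Median FPKM of each gene list in the 4 control libraries (coloured symbols), on a log axis, with the mean of the 4 as a black tick, the range as a grey line and the number of genes in brackets. The luminal and basal lists lie close together between libraries, while B and plasma cell, T and NK cell, mast cell and fibroblast lists spread widely.

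Transcripts of dividing cells were present in all libraries. All 18 proliferation genes were at a mean of at least 1, with Mki67 at 11.3, 14.2, 9.99 and 13.4, Top2a at 9.905 ± 1.197 and Pcna, the sliding clamp of DNA replication, at 67.8 ± 2.76. Of these genes 11 were highest in library 4 and 11 lowest in library 1. Immediate early genes, which many cells switch on within minutes of a stimulus, were high. Junb was at 343 ± 33.4, Jun at 196 ± 17.8, Fos at 61.5 ± 4.71 and Atf3 at 101 ± 16.5. Hspa1b, a heat shock protein, was at 287, 197, 166 and 137, highest in library 1 and lowest in library 4. The 14 genes of this list had a median of 76.9 ± 9.595 FPKM. All glands were minced and digested before RNA was taken. A response to that handling cannot be told apart here from the state in the animal.

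Because the study concerns the BMP pathway, its genes are given for the controls. Ligands bind a complex of type I and type II receptors, which phosphorylates Smad1, Smad5 and Smad9, and these act with Smad4 on genes such as the Id family. Among type I receptors, Acvr1 was at 19.3, 16.9, 18.7 and 16.4, Bmpr1a at 10.6, 11.7, 8.74 and 9.52 and Bmpr1b at 0.436, 0.62, 0.43 and 0.42. The type II receptor Bmpr2 was at 4.91 ± 0.781. Bmpr1b was thus below the detection rule and the other receptors above it. Smad4 was at 31.6 ± 2.68, Smad1 at 14.2 ± 0.739, Smad5 at 12.03 ± 0.926 and Smad9 at 0.0238. The ligands Bmp2 and Bmp4 were at 1.98 ± 0.377 and 0.905 ± 0.194. Of the target genes, Id3 was the highest at 18.6 ± 1.56, with Id4 at 9.45 ± 0.955, Id2 at 8.47 ± 1.395 and Id1 at 6.54 ± 1.15. Msx1 and Msx2 were at 1.21 ± 0.218 and 0.627 ± 0.0571.

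Protein-coding genes held most of the FPKM. Their share was 91.3% ± 0.316 of the summed FPKM and 97.5% of the reads on genes. Processed pseudogenes, copies of messenger RNAs that were inserted back into the genome, held 5.59% ± 0.0514 of the FPKM but 0.957% of the reads. FPKM gives short genes more weight than reads do. Long non-coding RNAs (lncRNA) held 0.961% ± 0.0809, and 360 entries without a name held 0.432% ± 0.0506. Small nucleolar RNAs and microRNA genes held 0.235% ± 0.0179 and 0.232% ± 0.0249, with 0.00747% and 0.00599% of the reads. Their genes have a median length of 127 and 89 bases, so a few reads give a high FPKM, and they were left out of the rankings above. The constant genes of immunoglobulins ranged from 0.0252% to 0.291%, while the protein-coding share ranged from 91.1% to 91.8%.

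Several processed pseudogenes of ribosomal protein genes were listed at levels above those of their parents. The highest non-coding entry was Rpl17-ps10 at 979, 899, 678 and 524 FPKM. Its parent Rpl17, a protein of the large ribosomal subunit, was at 81.8, 85.7, 284 and 325. Parent and copies thus ran opposite to each other over the libraries, and counted together as a share of the reads, Rpl17 and its 11 copies had a CV of 9.91% where Rpl17 alone had 66.3%. Rpl34-ps1 was at 104, 695, 859 and 843 and Rpl34 at 167, 88.4, 106 and 110.1, and the CV of their family sum was 11.7%. Rps10 was at 6.42, 6.295, 6.61 and 6.52 against 537, 494, 668 and 659.6 for Rps10-ps2. Here the parent had a CV of 2.12% and the family sum one of 14.3%, and for Rpl35a the sum kept a CV of 79.2%. Of 56 families of a gene and the pseudogenes named after it, ribosomal or not, 3 had more reads on the copies than on the parent, and in 15 the sum had a lower CV than parent and copies each. The division of reads between parent and copy is uncertain in such families. The 83 genes of cytosolic ribosomal proteins together held 12.1% ± 1.02 of the FPKM, at sums of 33579, 32777, 42558 and 42199.6. Of them 46 were highest in library 3 and 33 in library 4.

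Among reference genes, Gapdh, a glycolytic enzyme often used as a standard, was low. Its FPKM were 9.98, 4.68, 31.6 and 5.04, far below Actb at 906, 756, 874 and 936 and Ppia at 277, 285, 326 and 360.1. In the GENCODE transcript of Gapdh, 85.8% of windows of 100 bases were found letter for letter in a transcript of another gene, and 0% of those of B2m and of Csn2. Genes with similar shares were listed at high levels too, such as Rps6, a protein of the small ribosomal subunit (83.6%, 908 FPKM), and the reference gene Tuba1b, a tubulin (72.99%, 117 FPKM). Of the 12 reference genes, Gapdh had the highest CV at 99.4%, and Sdha, a subunit of succinate dehydrogenase, and Eef1a1 had CVs of 5.03% and 5.64%. The part of shared sequence in the level and spread of Gapdh was not tested.

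By chromosome, the largest share of FPKM lay on chromosome 11, at 10.4% ± 0.201, with Wfdc18 as its highest gene. Chromosome 9 followed at 7.44% ± 0.162, led by Eef1a1 and Rplp1, and chromosome 5 at 7.02% ± 0.204, with Csn1s2a and Rplp0 at the top. Chromosome 5 held 6.300% of the protein-coding genes with a mean of at least 1, and it rose to 8.33% when reads were counted in place of FPKM and to 9.95% per transcript length. The autosomes with the least were chromosomes 18 and 16, at 1.86% ± 0.0191 and 1.997% ± 0.0818. On the X chromosome lay 2.77% ± 0.0258. Its 321 protein-coding genes with a mean of at least 1 had a median of 5.83 FPKM, and the 10755 such genes of autosomes had a median of 6.99. In each library the X median was the lower, at 6.02, 6.13, 5.97 and 5.89 against 6.98, 7.03, 7.01 and 7.04. Chromosome Y held 0.00844%, from 10 of its 1575 entries.

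**Figure D3:**
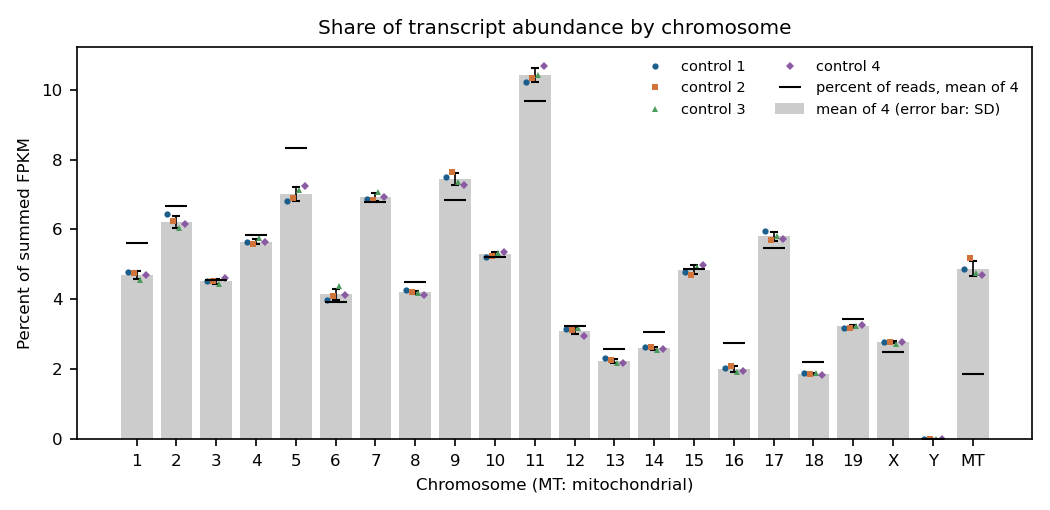
Percent of the summed FPKM by chromosome, as the mean of the 4 control libraries (bars, error bars SD) and for each library (coloured symbols); black dashes give the percent of reads. Chromosome 11 holds the most, and chromosome 5 and the mitochondrial chromosome (MT) are those where the shares of reads and of FPKM differ most.

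The mitochondrial chromosome held 4.88% ± 0.212 of the FPKM and 1.87% of the reads. Its 13 messengers encode subunits of the respiratory chain and of ATP synthase and are cut from long common transcripts of the 2 strands, yet the table gave them levels from 0.343 to 4424 FPKM. The 5 messengers with nearly all of their sequence found elsewhere were low, and below that share the level did not follow the shared part. For mt-Co2, mt-Co3, mt-Atp6, mt-Nd3 and mt-Nd4l, between 97.6% and 99.9% of windows of 100 bases were also found in a transcript of another gene, and their levels were 13.1 to 51.6 FPKM. For mt-Cytb, mt-Nd1, mt-Nd5 and mt-Nd6 no window was shared and the levels were 648 to 4007. Between these, mt-Nd2 shared 3.19%, mt-Co1 30.8% and mt-Nd4 60.8%, at 1322, 4424 and 1071 FPKM. Another low gene was mt-Atp8, which shared none and stood at 0.343, and whose exon overlaps mt-Atp6 on the same strand.

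A row of 7 entries on chromosome 1, annotated as unprocessed pseudogenes, lies between 24611535 and 24616197 (GRCm38) and shares 96.7% to 100% of its windows with other transcripts. The highest of them were Gm10925 at 38.04, 42.7, 36.2 and 32.1 FPKM, Gm28661 at 32.5, 30.8, 34.2 and 34.3 and Gm28437 at 21.2, 23.96, 22.6 and 20.9. Gm10925 and Gm28661 lie in the range spanned by mt-Co2 (52.1, 51.1, 52.4 and 50.6), mt-Atp6 (37.2, 39.1, 31.4 and 29.7) and mt-Co3 (31.7, 32.2, 30.7 and 28.5). The 7 mitochondrial genes with fewer shared windows, mt-Atp8 left aside, have means over the libraries of 648 or above. How the authors' counting treated reads that map to more than 1 place is not given in the sources used here, and its part in these levels was not tested. The levels of mt-Co2, mt-Co3, mt-Atp6, mt-Nd3 and mt-Nd4l, and with them the share of the mitochondrial chromosome, are therefore uncertain. Outside the mitochondrial genes a high shared part did not go with a low level throughout. Tpt1-ps3 shared 100% of its windows at a mean of 515 FPKM, Rpl34-ps1 98.4% at 625, and Rps27, a protein of the small ribosomal subunit, 98.4% at 331.

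**Figure D4:**
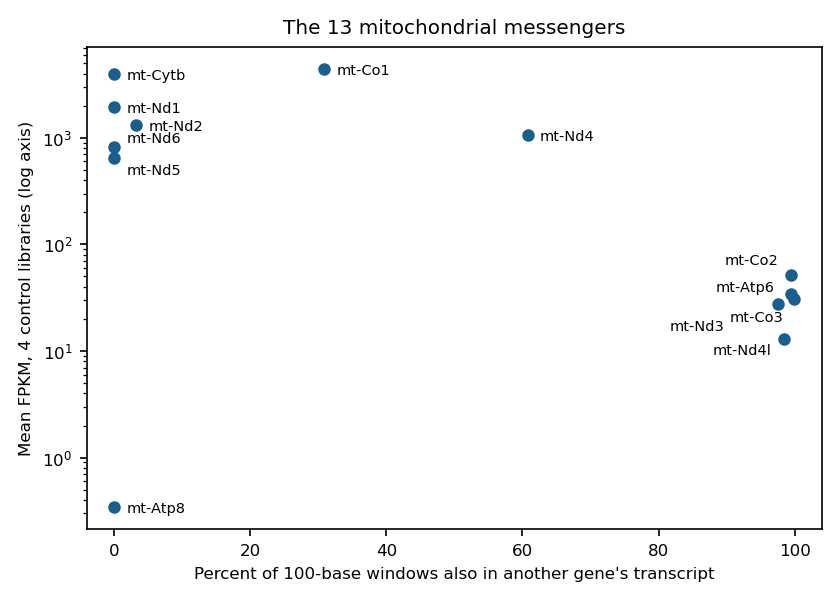
Mean FPKM of the 13 mitochondrial messengers over the 4 control libraries (log axis) against the percent of their windows of 100 bases that are also in a transcript of another gene. The 5 genes with over 97% of windows shared lie at 13.1 to 51.6 FPKM, and 7 of the other 8 lie at 648 or above, with mt-Atp8 as the exception.

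The 4 libraries resembled each other closely over most genes. Pearson's r of log2(FPKM + 1) across the 12941 genes with a mean of at least 1 was 0.969 to 0.983 between pairs of libraries, a description across genes, which are not independent replicates. The median absolute difference on this log2 scale was 0.10 between libraries 1 and 2 and 0.11 between 3 and 4, and 0.15 to 0.19 for the other pairs. By the median difference libraries 1 and 2 thus formed one pair and 3 and 4 another, although r was as high between 2 and 4 (0.983) as between 1 and 2, and no label or method names a batch for them. The sums of ribosomal protein and casein genes were higher in 3 and 4 than in 1 and 2, while the fibroblast median was higher in 2 and 4 and the basal median higher in 1 and 2. Summed FPKM over all genes was also higher in 3 and 4. The part of gene length in such differences between libraries was not tested. Counts differed between every pair of libraries by 8.18 to 21.9 times the variance that counting gives (chi-square over degrees of freedom), so no pair was counted as 1 library.

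The spread between libraries was small for most genes. With 1 library per mouse, differences between mice and between preparations cannot be told apart in it. The median CV was 10.96% over all genes with a mean of at least 1, and counting of reads alone would give 4.66%. By level it was 15.97% at 1 to 3 FPKM, 10.4% at 3 to 10, 8.37% at 10 to 30, 8.91% at 30 to 100 and 11.5% above 100. The lowest values thus lay in the middle of the range, and the highest genes varied more than the counting error of 1.09% in that class. The highest library exceeded the lowest by more than 2-fold for 1121 genes, 8.66% of those tested, namely for 3.68% of protein-coding genes, 24.7% of lncRNA genes and 29.5% of processed pseudogenes. Median reads per gene in these classes were 579.5, 53.5 and 44.1. Every one of the 62 variable and 10 constant immunoglobulin genes tested passed the 2-fold ratio.

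**Figure D5:**
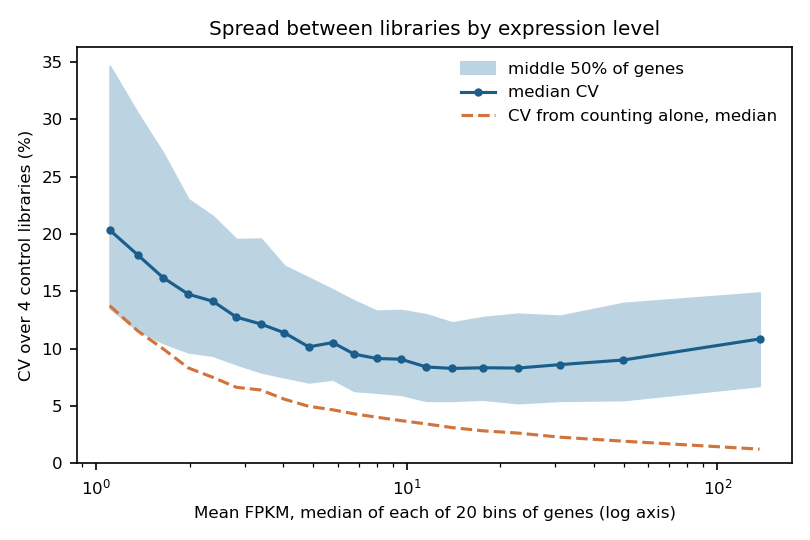
CV over the 4 control libraries against mean FPKM (log axis) in 20 bins of equal gene number, as the median (line with points) and the middle 50% of genes (band); the dashed line is the median CV that counting alone would give. The observed median stays above the counting line throughout, and the ratio of the 2 is highest in the most abundant bin.

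Among protein-coding genes with a mean of at least 10 FPKM, the most variable were Gapdh, Rpl35a and Rpl17, and then Mcpt4 of mast cells at a CV of 63.5%. Rpl35a stood at 8.43, 8.09, 84.7 and 47.2. Slc15a2, a peptide transporter, was at 13.3, 20.5, 14.4 and 2.22, with library 4 apart from the others. Retnla, a secreted protein of alternatively activated macrophages and adipose tissue, was at 33.3, 27.1, 19.7 and 65.3, Clec3b, the matrix protein tetranectin, at 46.01, 57.4, 32.2 and 106, and Il1rl1, the receptor for interleukin 33, at 5.94, 12.98, 5.801 and 15.7. These 3 were highest in library 4, as were the mast cell and most fibroblast genes. Sumo2 (18.9, 9.44, 10.5 and 30.4) and Cep85 (39.5, 17.3, 22.2 and 13.8) completed the 10. The steadiest was Llgl1, a regulator of epithelial polarity, at 18.5, 18.4, 18.4 and 18.4, a CV of 0.348%. Acot7, Thumpd1, Hnrnpk, Rad23b, mt-Nd2, Kmt5a, Zfp628, Osbpl9 and Tbc1d20 followed with CVs up to 0.767%. CVs this small lie below the CV that counting alone would give, 2.52% for Llgl1 and 4.21% for Acot7, in all of these genes but mt-Nd2 (0.719% against 0.645%), and they stand at the end of a ranking of many genes.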

How the data were processed

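RNA-seq of mammary epithelial preparations from 4 control mice at pregnancy day 14.5 was described, 1 library per mouse. Per the labels and the study's methods, total RNA libraries were made with a NEBNext Ultra kit, and reads were mapped with Hisat2 to GRCm38. The submitters' processing notes instead name mm9, with StringTie 1.3.3b and featureCounts 1.5.0-p3 among the tools. The authors deposited FPKM per gene in a table of 55933 genes and 8 libraries. Of its 55480 identifiers found in GENCODE vM21, 99.68% had the same GRCm38 coordinates, so positions are given in that build. No source used here says whether counting used the strand, and overlaps of exons are given beside only some of the genes concerned. Other named genes overlap a gene on the other strand too, such as Junb with Prdx2 (73.1 FPKM) and Nfkb2 with Psd (26.4 FPKM).

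FPKM multiplied by gene length was a whole multiple of 1 step per library for 100% of values (tolerance 0.01), which gave the reads on each gene. The step implied median-of-ratios size factors. Sums of FPKM differ between libraries, and they also depend on the lengths of the genes on which the reads lie. Values are means ± SD over the 4 libraries. Detection was set at FPKM 1, and the spread was computed for genes with a mean of at least 1. The expected counting CV assumes Poisson reads without duplicates. With 1 group there was no test between groups and no p-value, and the chi-square ratio and Dixon's test were used as checks of single libraries. Python 3.11.15, pandas 2.3.3, numpy 2.4.6, scipy 1.17.1 and matplotlib 3.10.9 were used. The code for the spread was also run on simulated reads, and the outcome is not given here.

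Named genes were the 25 highest of at least 200 bases, the 10 highest non-coding genes, the 10 most and 10 least variable protein-coding genes with a mean of at least 10, the highest gene of a chromosome, and members of the gene lists. The highest transcription factor, lncRNA and unnamed entries, genes of NF-kB signalling, pseudogenes of named parents and their overlapping partners, and the chromosome 1 entries were added after values were seen. The members and lists were chosen with earlier results of these data known. Where 2 entries share a symbol, the higher was used. Promoters are from RefSeq, matched by symbol for 16569 protein-coding genes. Shared windows were searched among all GENCODE vM21 transcripts on both strands. Alternatives were other detection thresholds, shares of reads, TPM, transcript length, geometric means, other filters and each library left out. The 4 other libraries entered only the check of the size factors, over 19210 genes with reads in all 8 libraries.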

Additional observations from a re-analysis of the deposited data

Results flagged for a closer look

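In 18 of 291 sets of 4 control values, 1 library stood apart from the other 3 by more than Dixon's test allows at the 95% level. Chance gives about 1 in 20, or 14.6 of these sets. Library 4 held 18778823 reads on genes, against 16456480 to 16642619 in the others. Immune values stood apart in several libraries. The share of FPKM on immunoglobulin constant genes was 0.291 against 0.0252 to 0.062% in library 3, and Igkc was 581 against 40.3 to 109.5 FPKM. In library 4 the mast cell median was 12.8 against 3.77 to 4.597 FPKM, Cma1 was 12.8 against 3.81 to 5.29 and Mcpt4 was 25.3 against 8.07 to 10.6. In library 1 the macrophage median was 8.19 against 6.07 to 6.29 FPKM, the value of Csf1r.

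The other values were epithelial or general. The luminal median was 266 against 295 to 297 FPKM in library 2, where Krt7 was 10.97 against 14.7 to 15.2 and Bmpr1b 0.62 against 0.42 to 0.436. In library 1 B4galt1 was 47.1 against 43.5 to 44.1 FPKM and Gata3 21.5 against 23.3 to 23.6. In library 3 Csn1s2b was 0.687 against 0.352 to 0.38 and Socs3 91.4 against 84.7 to 85.5. Library 4 stood apart for Cxcl2, at 320.0 against 228 to 241 FPKM. It also stood apart for 2 of the steadiest genes, mt-Nd2 at 1336 against 1316 to 1318 and Tbc1d20 at 29.2.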

How the results depend on the processing

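With 1 group there was no call to lose. Leaving out 1 of 4 values cannot move their mean by as much as their SD. The shares, counts of detected genes and list medians with each library left out stayed within it, which therefore shows no stability. The B and plasma cell median, with an SD of 5.87, went from 5.77 to 3.04 without library 3. The median CV, the share over 2-fold and the counting CV have no SD and ranged over 9.92 to 10.97%, 6.11 to 6.797% and 4.61 to 4.74%. Of 68 values under other alternatives, 32 stayed within the SD or, where there was none, within 1.5 times the reported value. The threshold of 0.5 gave 15139 detected genes and 5 gave 7293. As a share of reads, the 10 highest genes held 6.02%, coding genes 97.5%, mitochondrial genes 1.87%, chromosome 5 8.33% and caseins 2.58%. Per transcript length these were 9.44%, 94.3%, 3.16%, 9.95% and 4.34%. This alternative was added after the data were seen, as was the TATAAA position. Without mitochondrial genes the 10 highest held 7.08% and chromosome 5 7.38%, and with genes of at least 200 bases the coding share was 92.3%. Per transcript length the luminal, basal, adipocyte, endothelial and macrophage medians were 513, 59.6, 0.912, 12.2 and 8.26. As geometric means with a pseudocount of 1 they were 224, 42.03, 2.67, 10.7 and 10.96, and with 0.1 the luminal, adipocyte, endothelial and macrophage values were 219, 1.45, 10.3 and 9.42. With no filter the median CV was 29.9% and 49.5% of genes passed 2-fold. That share was 2.63% at a mean of at least 10 and 3.68% for coding genes, and the median counting CV was 2.56% at a mean of at least 10. Begun 40 to 20 bases before the start, TATAAA was in 7.25% of the 69 promoters of the 100 most abundant genes, against 2.800% of all promoters and 1.34% of those of expressed coding genes, and TTCNNNGAA was in 11.1% of the 36 promoters of the 50 most abundant. Shares and levels thus depend on the length used. The unfiltered spread also counts genes with a mean below 1 FPKM. No paired analysis was possible because there is 1 group and no test.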

Other observations

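Some genes of NF-kB signalling and of the acute inflammatory response were chosen after their values were seen and are given as levels. As for the immediate early genes, a response to mincing and digestion cannot be told apart from the state in the animal. Cxcl1, a chemokine that attracts neutrophils, was at 600.0, 670.2, 727 and 782 FPKM, Cxcl2 at 241, 228, 232 and 320.0, and Il6, an inflammatory cytokine, at 94.4, 101, 98.01 and 126. Lcn2, a protein that withholds iron from bacteria, was at 645, 540.0, 644 and 617, and Clu, the secreted chaperone clusterin, at 868, 868, 819 and 793. Tnfaip3, an inhibitor of NF-kB, was at 49.5 ± 2.45, Ier3 at 569 ± 104 and Ccl20 at 26.6 ± 3.68. The subunits Nfkb2, Rela and Nfkb1 were at 118 ± 0.998, 118 ± 8.57 and 67.3 ± 3.54, and Nfkb2 had a CV of 0.848%, below the 1.03% that counting alone would give. Ptx3, a pattern recognition protein, was at 54.4, 78.7, 51.2 and 127, with its libraries in the same order as those of Dcn.

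Among genes that the table assigns to a transcription factor family, Atf4, the factor of the integrated stress response, was the highest at 363, 325, 409 and 420.4 FPKM. Junb, Cebpd (287 ± 22.00), Cebpb and Klf6 (252 ± 26.4) followed. Hmga1 was at 225 ± 25.6, Myc at 113 ± 5.16, Stat3 at 107 ± 3.65 and Sox4 at 78.7, 72.4, 62.5 and 55.2. Elf5 (21.3), Gata3 (22.97) and Trp63 (3.58) stood well below them. The highest lncRNA genes were 2410006H16Rik at 106 ± 15.7, Gm10076 at 161, 65.4, 87.04 and 89.6 and Malat1, a nuclear RNA, at 117, 103, 76.1 and 80.3. Malat1 was higher in libraries 1 and 2 than in 3 and 4. The most abundant entry without a name lies on the minus strand at chr17:34996692-35000955 (GRCm38) and was at 551, 476, 457 and 479 FPKM.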
